A study of Mus musculus with 2 samples.

Results

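The lysosomal hydrolases and activators besides the cathepsins were followed in the left ventricle of a mouse labelled Lamp2 knockout and of a wildtype mouse. Members were chosen by gene symbol, and all 31 symbols were found among the 31920 rows of the deposited table. They are soluble glycosidases, sulfatases, lipases, phosphatases, peptidases, a nuclease and lipid-binding cofactors of the lysosome, with the membrane-bound acetyltransferase Hgsnat. The rule names symbols and uses no measured value, but it was drawn up with earlier results of these data known.

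RNA was sequenced from 1 male mouse that the labels give as Lamp2 knockout and 1 male wildtype mouse, both of strain 129-SvEv and 10 weeks old, with no treatment given in the labels. The tissue was the left ventricle of the heart, which holds cardiomyocytes, endothelial cells, fibroblasts and immune cells. In such bulk RNA, fewer cells of a type and less RNA per cell cannot be told apart. The labels do not say which part of Lamp2 the allele removes. With 1 library per genotype no difference has a replicate check, so no test of the genotypes and no p-value is given, and higher and lower describe these 2 libraries.

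Lysosomes break down material that reaches them by autophagy and endocytosis, at an acidic pH kept by a proton pump. Most of their enzymes are made at the endoplasmic reticulum, tagged with mannose phosphate and carried to the lysosome by receptors. Most of them act on a particular bond, and inherited loss of many of them in humans leaves the substrate undegraded, as a lysosomal storage disease. LAMP2 is a membrane protein of the same organelle, and its loss in humans causes Danon disease, in which heart muscle is affected. Many lysosomal genes carry a short E-box-containing element near their start site to which the transcription factor TFEB binds.

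The promoters of the members are shown first, because that shared element lies in some of them and not in others. RefSeq start sites of build GRCm38.p6 were available for 27 of the 31 members, with 31 promoters of 250 bases before and 50 bases after the start. Aga, Asah1, Galns and Hgsnat were not matched. Both strands were searched for CACGTG, for TCACGTGA and for GTCACGTG, and the first motif lies inside each of the other two. GTCACGTG was present in 6 of 27 members (22.2%), against 2.55% of all 27025 genes with a promoter. The same 6 members hold CACGTG, which 8.09% of all genes hold. TCACGTGA was found in Gla alone, and in 1.12% of all genes. Promoters of the members had a median GC content of 57%, against 52.7% over all 32851 promoters. Among the 18337 promoters with at least 51.2% GC, 3.44% hold GTCACGTG. The searched motifs stand for the element named above, which many lysosomal genes are known to carry. A higher share in the members follows in part from that choice and is no independent result. Such a match is a description of letters and not a measured binding site. The RefSeq starts used for Naglu and Lgmn lie inside the deposited rows of these genes, downstream of the rows' own starts.

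The 6 matches are set out with the 11 bases on each side, on the strand of the gene and with the motif in capitals. In Sgsh it reads in the reverse orientation.
Naglu, chr11:101070008-101070037, plus strand: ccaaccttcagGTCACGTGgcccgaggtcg
Sgsh, chr11:119355521-119355550, minus strand: ggcctgccgtgCACGTGACcgtggggagcg
Lgmn, chr12:102439125-102439154, minus strand: atggaatgtctGTCACGTGgtccattttat
Arsa, chr15:89477424-89477453, minus strand: ttcaactcagtGTCACGTGttgtctgctcc
Glb1, chr9:114401017-114401046, plus strand: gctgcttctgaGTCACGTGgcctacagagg
Gla, chrX:134601183-134601212, minus strand: gtgagatctcgGTCACGTGagcaactctcg
Between the motif and the start site lay 10 bases in Arsa, 21 in Sgsh, 42 in Glb1, 43 in Lgmn and 67 in Naglu, while in Gla there were 188.

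**Figure D1:**
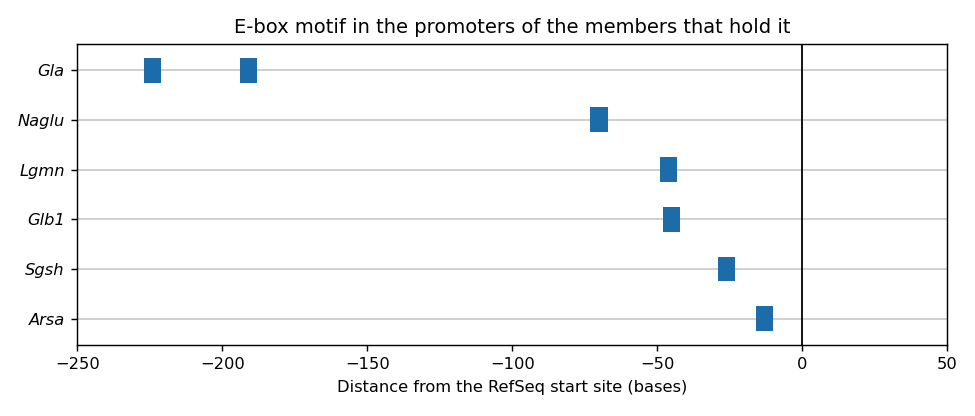
Position of CACGTG matches (blue blocks, either strand) against the RefSeq start site at 0, in bases, for the 6 members whose promoter holds one; grey lines span the searched window. Gla holds 2 matches far upstream, and the others hold 1 each within 73 bases of the start.

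Neu1, Naglu and Lipa are the 3 measured members whose log2 ratio, given below, was farthest from 0 among those with a promoter in the table. Their promoters are shown from 250 bases before the start to the start base, which is in capitals as is any motif match. Neu1 and Lipa hold none of the searched motifs in this window.
Neu1, chr17:34931003-34931253, plus strand: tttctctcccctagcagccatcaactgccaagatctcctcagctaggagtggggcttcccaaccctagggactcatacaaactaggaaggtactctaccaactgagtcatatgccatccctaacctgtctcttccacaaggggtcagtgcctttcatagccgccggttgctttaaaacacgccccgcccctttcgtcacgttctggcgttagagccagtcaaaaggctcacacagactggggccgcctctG
Naglu, chr11:101069844-101070094, plus strand: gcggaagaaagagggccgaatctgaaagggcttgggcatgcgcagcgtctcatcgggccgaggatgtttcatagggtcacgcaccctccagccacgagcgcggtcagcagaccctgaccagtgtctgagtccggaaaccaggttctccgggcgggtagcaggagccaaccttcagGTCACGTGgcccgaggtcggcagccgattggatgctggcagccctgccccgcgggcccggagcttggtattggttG
Lipa, chr19:34527474-34527724, minus strand: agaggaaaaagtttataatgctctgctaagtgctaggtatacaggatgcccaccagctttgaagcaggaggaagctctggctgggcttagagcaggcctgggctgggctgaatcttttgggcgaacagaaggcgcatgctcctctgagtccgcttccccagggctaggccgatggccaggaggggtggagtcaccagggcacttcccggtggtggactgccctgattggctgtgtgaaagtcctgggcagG

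From the mouse with the Lamp2 knockout label (the knockout-labelled library) 8773820 reads were assigned to genes, and from the wildtype mouse 8410593. Levels are reads per 1000000 such reads (RPM). Ratios are of the knockout-labelled over the wildtype RPM, and the range given with a ratio is its exact 95% counting interval, which covers counting error only. A gene counted as measured from 5 RPM in the higher library. For genes that reached 5 RPM in only 1 library, among the members Galc, Galns and Arsb, the direction follows from this rule. The log2 ratio has 1 RPM added to both values, and a log2 ratio of at least 1 in size is called 2-fold. Lamp2 had 986 reads in the knockout-labelled library and 990 in the wildtype library, so its transcript does not check the label. Cardiomyocyte markers took 64131 RPM in the knockout-labelled library and 66482 RPM in the wildtype library, so both carried the defining transcripts of heart muscle. Mitochondrial rows took 16.2% of the reads in the knockout-labelled library and 26.5% in the wildtype library, and the log2 ratio of all 10209 measured genes had a median of 0.11. Ratios were therefore also given on 3 rescalings, by the median ratio of all genes, by a trimmed mean, and by totals that leave out mitochondrial rows and the top 10 genes. They lowered the log2 ratios of measured members by 0.09 to 0.20, the last of them most, and less where few RPM made the added 1 RPM weigh more.

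Together the 31 members took 16039 reads in the knockout-labelled library and 12779 in the wildtype library, which is 1828 RPM in the knockout-labelled against 1519 RPM in the wildtype library and a ratio of 1.20 (1.18 to 1.23). Psap alone gave 48.0% of these reads in the knockout-labelled library and 51.0% in the wildtype library. Without Psap the sums were 951 RPM in the knockout-labelled and 744 RPM in the wildtype library, a ratio of 1.28 (1.24 to 1.32). The rescalings divide such ratios by 1.08 to 1.15.

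Of the 31 members, 28 were measured. Acp5, Gla and Manba stayed under 5 RPM in both libraries. Only Neu1 of the 28 was 2-fold higher, against 3.35% of all measured genes, and 0 were 2-fold lower, against 2.37%. In either direction 1 of 28 passed, against 5.72% of all measured genes, so the members' share past 2-fold was near the background. At 1.5-fold, 6 members were higher, namely Neu1, Naglu, Lipa, Galc, Gusb and Npc2 (12.8% of all measured genes), and Arsb and Pla2g15 were lower (7.30%). The counting interval lay above 1 for 15 members, where 35.0% of all measured genes did so, and below 1 for 4, where 16.8% did. A log2 ratio above 0 was found in 20 of 28 members (71.4%), against 61.2% of all measured genes, and the members' median was 0.33. Under the rescalings the members' median was 0.14 to 0.22, with 17 to 20 members above 0 and with 9 to 11 intervals above 1 and 4 to 6 below. Over all measured genes the share above 0 was then 42.9% to 49.99%, with 20.4% to 25.9% of intervals above 1 and 24.1% to 30.3% below.

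**Figure D2:**
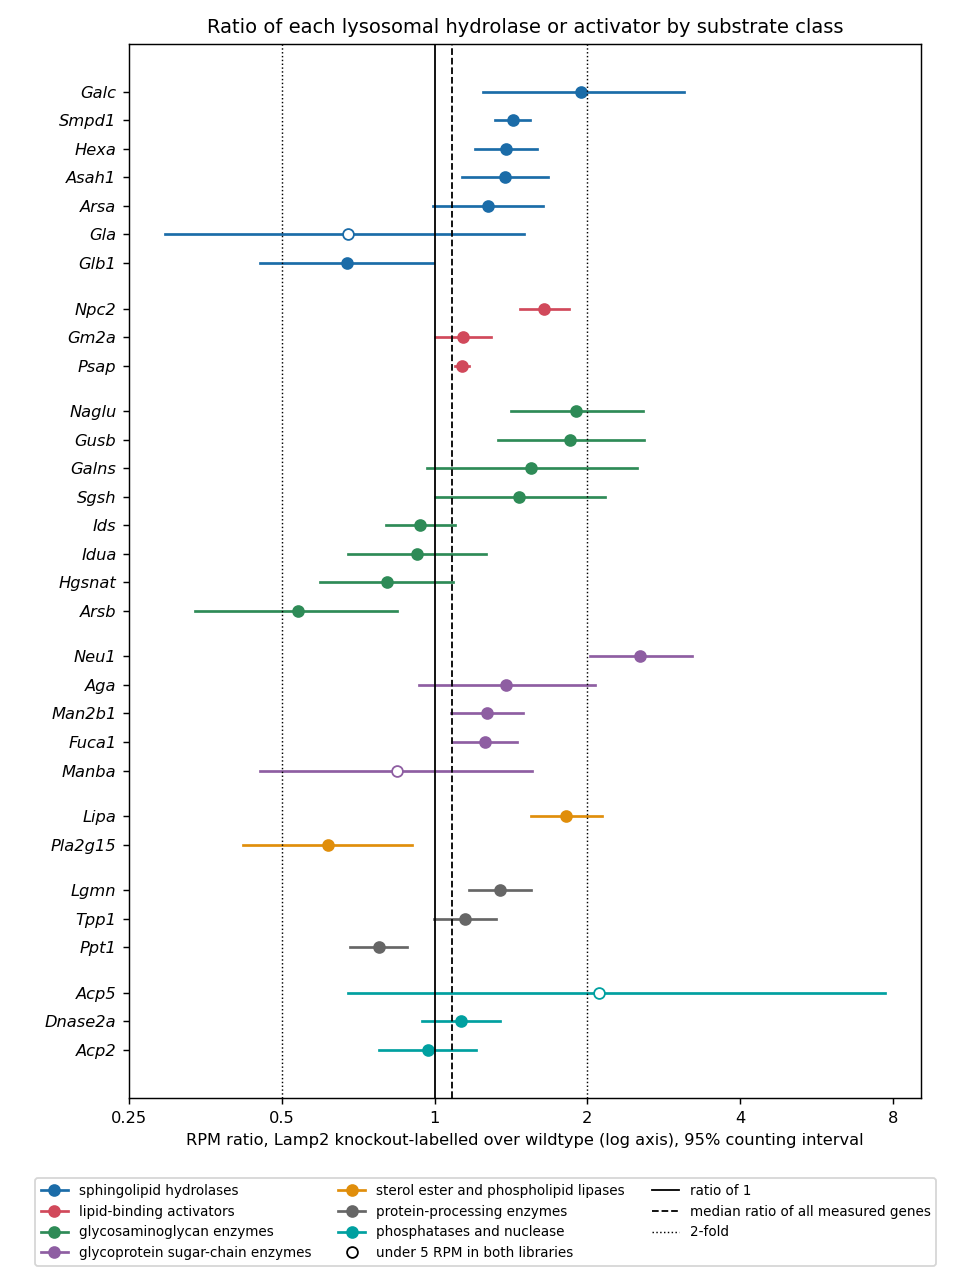
RPM ratio of the Lamp2 knockout-labelled over the wildtype library (log axis) for the 31 members, grouped and coloured by substrate class, with exact 95% counting intervals; open points stayed under 5 RPM in both libraries. Neu1 at 2.54 is the 1 measured member past 2-fold, and Arsb at 0.538 has the lowest ratio.

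Levels were set side by side per length of the longest annotated transcript. Which transcript of a gene was expressed was not determined, and a shorter one would raise its level per kb. The ranks therefore hold for these lengths only, and the counting intervals do not cover this. Psap stood first at 330.3 RPM per kb in the knockout-labelled library and 292 RPM per kb in the wildtype. Smpd1 followed at 72.8 RPM per kb in the knockout-labelled and 51.1 RPM per kb in the wildtype library. Next in the knockout-labelled library came Npc2 (30.5 RPM per kb), Hexa (28.4) and Lgmn (28.2), whereas in the wildtype these ranks went to Ppt1 (26.0 RPM per kb), Lgmn (21.0) and Hexa (20.6). The 3 unmeasured members had the lowest levels. Gla was at 0.431 RPM per kb in the knockout-labelled and 0.637 in the wildtype library, Manba at 0.682 in the knockout-labelled and 0.809 in the wildtype library, and Acp5 at 0.866 in the knockout-labelled and 0.411 in the wildtype library. In the knockout-labelled library the counting intervals of Npc2, Hexa and Lgmn overlapped, while those of Psap and Smpd1 overlapped no other member.

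**Figure D3:**
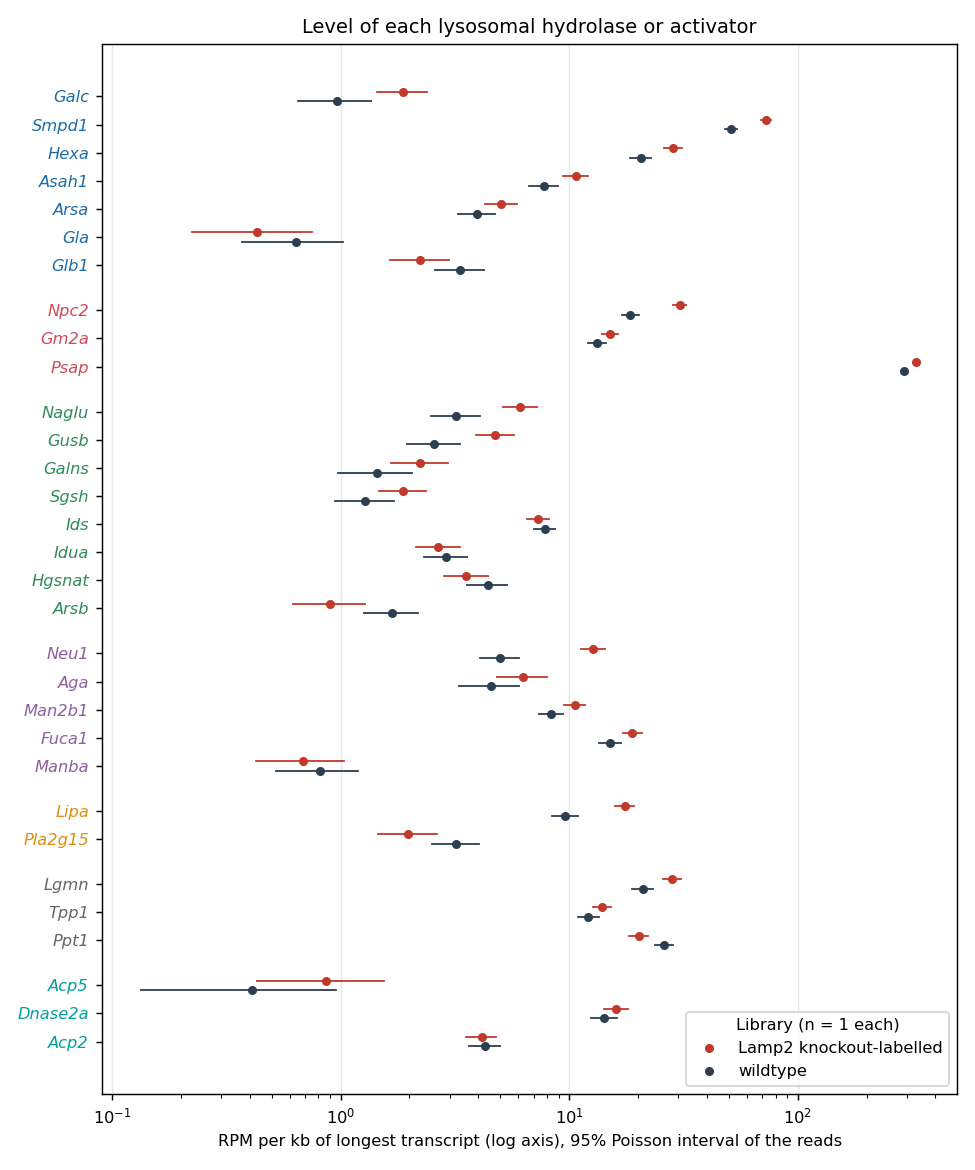
Level of each member in RPM per kb of its longest transcript (log axis) in the Lamp2 knockout-labelled library (red) and in the wildtype library (dark blue), 1 library each, with 95% Poisson intervals of the reads; label colours mark the substrate class. Psap, at 330.3 RPM per kb in the knockout-labelled and 292 in the wildtype library, stands apart from all other members in both libraries.

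Enzymes that trim the sugar chains of glycoproteins had the member with the largest ratio. Neu1 encodes the lysosomal sialidase, which removes terminal sialic acid, and lies on the plus strand of chromosome 17 from 34931253 to 34937297 (mm10). It stood at 31.5 RPM (276 reads) in the knockout-labelled library and 12.4 RPM (104 reads) in the wildtype, a ratio of 2.54 (2.02 to 3.22). Its log2 ratio of 1.28 remained past 2-fold under the rescalings, at 1.09 to 1.17. The other measured genes of this class differed by less. Man2b1, an α-mannosidase, stood at 40.6 RPM in the knockout-labelled against 31.98 RPM in the wildtype library (ratio 1.27, 1.08 to 1.49). Fuca1, the α-fucosidase, was at 47.8 RPM in the knockout-labelled and 38.0 RPM in the wildtype library (ratio 1.26, 1.08 to 1.46). Both intervals held 1 under each rescaling. Aga, which splits the bond between asparagine and the sugar chain, was at 7.41 RPM in the knockout-labelled against 5.35 RPM in the wildtype library, and its interval of 0.932 to 2.07 held 1. Manba, the β-mannosidase, rested on 22 reads in the knockout-labelled and 25 in the wildtype library. All 4 measured genes of the class lay above 0, also under the rescalings, with a median log2 ratio of 0.37, or 0.19 to 0.26 rescaled.

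In the cell the Neu1 sialidase is held in a complex with the protective protein encoded by Ctsa and with the β-galactosidase encoded by Glb1. The ratios of Ctsa and Glb1 lay on opposite sides of 1. Ctsa was at 183 RPM in the knockout-labelled library and 117 RPM in the wildtype (ratio 1.56, 1.44 to 1.69). Glb1 stood at 5.36 RPM (47 reads) in the knockout-labelled against 7.97 RPM (67 reads) in the wildtype library, with a ratio of 0.672 (0.453 to 0.991). The Glb1 row (chromosome 9, 114401095 to 114474377) shares its start and strand with the row of Tmppe, which held 84 reads in the knockout-labelled and 96 reads in the wildtype library, so reads of their common exons cannot be assigned to either.

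Sphingolipid hydrolases had a median log2 ratio of 0.45, or 0.26 to 0.34 under the rescalings, and 5 of 6 measured members lay above 0. Smpd1 encodes acid sphingomyelinase, which splits sphingomyelin into ceramide and phosphocholine. It was the most abundant of them at 176 RPM (1541 reads) in the knockout-labelled library and 123 RPM (1036 reads) in the wildtype, with a ratio of 1.43 (1.32 to 1.54). An opposite-strand row of 116 reads in the knockout-labelled and 89 reads in the wildtype library overlaps its end. Hexa, the α subunit of β-hexosaminidase, was at 56.8 RPM in the knockout-labelled against 41.0 RPM in the wildtype library (ratio 1.38, 1.20 to 1.59). Asah1, the acid ceramidase that acts after sphingomyelinase, had a ratio of 1.38 (1.13 to 1.67), from 29.6 RPM in the knockout-labelled and 21.5 RPM in the wildtype library. Under the largest rescaling the interval of Asah1 held 1 and that of Hexa stayed above 1. Galc, which removes galactose from galactosylceramide, had the largest ratio of the class at 1.95 (1.25 to 3.10). It rested on 63 reads (7.18 RPM) in the knockout-labelled library and 31 reads (3.69 RPM) in the wildtype. Arsa, the sulfatase of sulfatide, had 17.6 RPM in the knockout-labelled against 13.8 RPM in the wildtype library, and its interval (0.994 to 1.63) held 1. A row on its opposite strand held 3 reads in the knockout-labelled and 11 reads in the wildtype library. Gla, the α-galactosidase that is lost in Fabry disease, had 12 reads in the knockout-labelled library and 17 in the wildtype, too few to show a difference at this depth. Glb1, described above, was the 1 measured gene of the class below 0.

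The cofactors Psap, Gm2a and Npc2 carry lipids to enzymes or between membranes and cleave nothing themselves. Npc2, which hands cholesterol to the membrane protein NPC1, stood at 101 RPM (883 reads) in the knockout-labelled library and 61.1 RPM (514 reads) in the wildtype, a ratio of 1.65 (1.48 to 1.84). It stayed above 1 under each rescaling. Psap, the precursor of the saposins that assist several sphingolipid hydrolases, was at 877 RPM (7699 reads) in the knockout-labelled and 775 RPM (6519 reads) in the wildtype library, with a ratio of 1.13 (1.10 to 1.17). Gm2a, which presents ganglioside to β-hexosaminidase, had 62.3 RPM in the knockout-labelled and 54.8 RPM in the wildtype library, a ratio of 1.14 (1.003 to 1.29). For Psap and Gm2a the direction turned under the largest rescaling, with log2 ratios of −0.02 and −0.01 and intervals that held 1.

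Glycosaminoglycan enzymes were divided, with 4 of 8 above 0 and 4 below, on the deposited scale and on each rescaled one. The class covers the stepwise breakdown of heparan, dermatan, keratan and chondroitin sulfate. Naglu, which removes N-acetylglucosamine from heparan sulfate, was at 15.6 RPM (137 reads) in the knockout-labelled library and 8.20 RPM (69 reads) in the wildtype, a ratio of 1.90 (1.42 to 2.58). Gusb, the β-glucuronidase, had 12.8 RPM in the knockout-labelled against 6.90 RPM in the wildtype library and a ratio of 1.85 (1.34 to 2.59). The intervals of these 2 genes stayed above 1 under the rescalings. Sgsh, the sulfamidase of heparan sulfate, had 72 reads in the knockout-labelled library and 47 in the wildtype (ratio 1.47, 1.003 to 2.17). An opposite-strand row for Card14 that overlaps Sgsh held 18 reads in the knockout-labelled and 5 reads in the wildtype library. Galns, a sulfatase of keratan sulfate, had 50 reads in the knockout-labelled and 31 reads in the wildtype library and an interval of 0.969 to 2.50.

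On the other side of the same class, Arsb, the sulfatase of dermatan sulfate, had the lowest ratio of all measured members. It stood at 3.65 RPM (32 reads) in the knockout-labelled library and 6.78 RPM (57 reads) in the wildtype, a ratio of 0.538 (0.338 to 0.844). A row on its opposite strand held 9 reads in the knockout-labelled and 5 reads in the wildtype library. In GENCODE 1948 of the 4038 exon bases of Arsb overlap Gm26527 on the opposite strand. Hgsnat, which acetylates heparan sulfate ends inside the lysosome, was at 9.57 RPM in the knockout-labelled against 11.9 RPM in the wildtype library (ratio 0.805, 0.595 to 1.09). Ids and Idua, which act in turn on iduronate residues, had ratios of 0.938 (0.802 to 1.10) and 0.925 (0.676 to 1.27). Ids was at 36.5 RPM in the knockout-labelled and 38.9 RPM in the wildtype library and Idua at 9.46 RPM in the knockout-labelled and 10.2 RPM in the wildtype library. The 6 genes that serve heparan sulfate breakdown therefore had 3 intervals above 1, for Naglu, Gusb and Sgsh, and 3 that held 1, for Ids, Idua and Hgsnat. The interval of Sgsh held 1 under each rescaling, and those of Ids and Hgsnat lay below 1 under the largest.

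The ratios of the 2 lysosomal lipases lay on opposite sides of 1. Lipa, the acid lipase that frees cholesterol and fatty acids from their esters, was at 51.9 RPM (455 reads) in the knockout-labelled library and 28.5 RPM (240 reads) in the wildtype, a ratio of 1.82 (1.55 to 2.13). Pla2g15, a lysosomal phospholipase, stood at 5.36 RPM (47 reads) in the knockout-labelled against 8.68 RPM (73 reads) in the wildtype library, a ratio of 0.617 (0.418 to 0.903). Both intervals kept their side of 1 on each of the scales. Lipa lies on chromosome 19 from 34492316 to 34527474 and Pla2g15 on chromosome 8 from 106150399 to 106164715.

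Protein-processing enzymes were also split. Lgmn, the endopeptidase that cuts after asparagine and activates cathepsins, was at 56.2 RPM in the knockout-labelled library and 41.7 RPM in the wildtype (ratio 1.35, 1.17 to 1.55). Tpp1, a peptidase that takes tripeptides from protein ends, had 49.6 RPM in the knockout-labelled against 43.2 RPM in the wildtype library, and its interval (0.997 to 1.32) held 1. Ppt1, which strips fatty acyl groups from proteins, was lower at 48.1 RPM (422 reads) in the knockout-labelled library and 61.9 RPM (521 reads) in the wildtype, a ratio of 0.776 (0.681 to 0.884). Ppt1 had the most reads of the 4 members whose interval lay below 1, and it stayed below 1 under each rescaling. In GENCODE 32 of its exon bases overlap Cap1 on the opposite strand. Loss of TPP1 or PPT1 in humans causes a neuronal ceroid lipofuscinosis, and the ratios of these 2 genes lay on either side of 1.

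Phosphatases and the nuclease had a median log2 ratio of 0.06 over 2 measured genes, which turned to −0.13 to −0.05 under the rescalings. Acp2, the lysosomal acid phosphatase, had 169 reads in the knockout-labelled library and 167 in the wildtype (ratio 0.970, 0.779 to 1.21). Dnase2a, which degrades DNA in the lysosome, had 275 reads in the knockout-labelled and 234 reads in the wildtype library (ratio 1.13, 0.943 to 1.35), and its direction turned under the largest rescaling. The interval of each held 1. Opposite-strand rows held 74 reads in the knockout-labelled and 66 reads in the wildtype library at Dnase2a (Mast1), and 38 reads in the knockout-labelled and 33 reads in the wildtype library at Acp2 (Ddb2). Acp5, the tartrate-resistant phosphatase of osteoclasts and macrophages, had 11 reads in the knockout-labelled library and 5 in the wildtype, and its ratio cannot be read at this depth. Of 7 osteoclast markers, which include Acp5, 0 were measured and 4, Atp6v0d2, Calcr, Dcstamp and Ocstamp, were listed at 0 in both libraries.

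**Figure D4:**
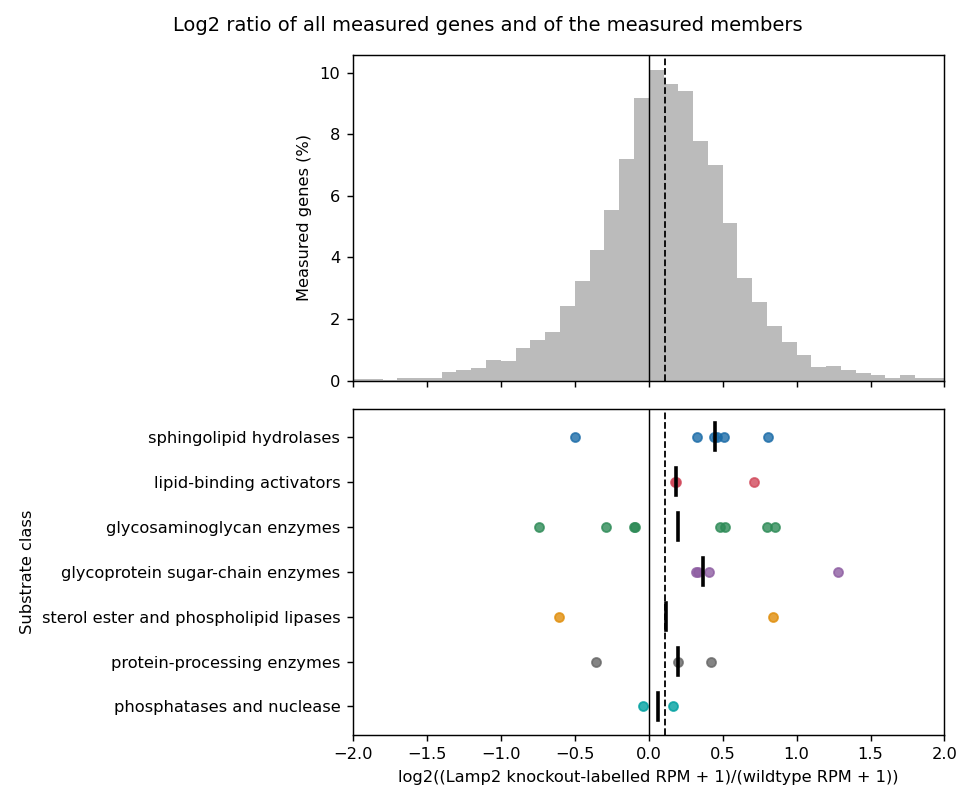
Upper panel, share of the 10209 measured genes per 0.1-wide bin of log2((Lamp2 knockout-labelled RPM + 1)/(wildtype RPM + 1)), with 0.578% outside the axis; lower panel, the 28 measured members by substrate class, with black bars at class medians. The solid line marks 0 and the dashed line the median of all measured genes, 0.11; glycosaminoglycan enzymes lie on both sides, and Neu1 at 1.28 is farthest right.

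Enzyme chemistry gave another division of the members. Of 9 measured glycosidases 7 lay above 0 (77.8%), against 61.2% of all measured genes. Their median was 0.46, beside 0.11 over all measured genes. The rule for measured genes set the direction of Galc, 1 of the 7. Sums below are on the deposited scale, and the rescalings divide their ratios by 1.08 to 1.15. All 11 glycosidases, Gla and Manba included, summed to 231 RPM in the knockout-labelled and 165 RPM in the wildtype library (ratio 1.40, 1.30 to 1.495). The 5 sulfatases Ids, Sgsh, Arsa, Arsb and Galns summed to 71.6 RPM in the knockout-labelled and 68.7 RPM in the wildtype library, and the interval of their ratio (0.929 to 1.17) held 1. All sulfatases need the activating enzyme encoded by Sumf1, singled out after its value was seen, which was at 14.6 RPM in the knockout-labelled library and 12.7 RPM in the wildtype (ratio 1.15, 0.880 to 1.497). On the genome the members were scattered over 15 chromosomes, with 7 of 31 on chromosome 8, which holds 4.43% of all rows. Those 7 were Aga, Asah1, Dnase2a, Galns, Hgsnat, Man2b1 and Pla2g15, and their ratios ran from 0.617 to 1.55.

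The members with a GTCACGTG match near their start, shown above, had ratios on both sides of 1. Naglu, Sgsh and Lgmn had ratios of 1.90, 1.47 and 1.35 with intervals above 1, that of Sgsh only before rescaling, while Glb1 was at 0.672 with an interval below 1. The intervals of Arsa, at 1.27, and of the unmeasured Gla, at 0.677, held 1. Of the TFEB family, Tfeb and Tfe3 had intervals above 1, which held 1 under each rescaling, and Mitf had one that lay below 1 on each scale. Tfeb stood at 38.9 RPM in the knockout-labelled library and 31.03 RPM in the wildtype (ratio 1.25, 1.06 to 1.48), and Tfe3 at 22.3 RPM in the knockout-labelled and 16.9 RPM in the wildtype library (ratio 1.32, 1.06 to 1.65). Mitf was lower at 34.3 RPM in the knockout-labelled against 43.2 RPM in the wildtype library (ratio 0.795, 0.680 to 0.929), and Tfec was listed at 0 in both. Their median log2 ratio was 0.32, or 0.12 to 0.20 rescaled.

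Among 27 other luminal lysosomal enzymes in the table, 22 were measured, 1 was 2-fold higher, 1 was 2-fold lower and 16 lay above 0, or 13 rescaled. Their median log2 ratio was 0.25, or 0.07 to 0.14 rescaled, beside the 0.33 of the members. Man2b2, another lysosomal mannosidase, was the higher one at 54.7 RPM in the knockout-labelled library and 25.7 RPM in the wildtype (ratio 2.13, 1.81 to 2.51). Naaa, an amidase of acylethanolamides, was the lower one at 3.99 RPM in the knockout-labelled against 9.39 RPM in the wildtype library (ratio 0.425, 0.277 to 0.640). Dpp7, a dipeptidyl peptidase, had a ratio of 2.18 (1.30 to 3.78), from 50 reads in the knockout-labelled and 22 in the wildtype library. With 1 RPM added its log2 ratio was 0.89, so it was not called 2-fold. Naaa reached 5 RPM in the wildtype library alone, so the rule for measured genes set its direction. The same holds for Dpp7, Ctbs and Ggh, which reached 5 RPM in the knockout-labelled library alone. Ctbs and Ggh were named after their values were seen. Gaa, which degrades glycogen in lysosomes and was picked with its value already known, was at 195 RPM in the knockout-labelled and 184 RPM in the wildtype library, and the interval of its ratio (0.988 to 1.14) held 1.

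Cathepsins, the lysosomal proteases left out of the members, had a median of 0.30 over 10 measured genes, and 6 of these lay above 0. Ctsl, at a ratio of 3.44, and Ctsc, at 0.375, both passed 2-fold, in opposite directions, and Ctsz and Ctss followed at 1.97 and 1.96. No member reached the ratio of Ctsl. The difference between the 2 lists was not tested. Genes of enzyme maturation and sorting, which tag hydrolases with mannose phosphate, activate sulfatases or carry enzymes to lysosomes, had a median of 0.06 over 18 genes, below that of all measured genes, and 0 passed 2-fold in either direction. The median turned to −0.12 to −0.05 under the rescalings. Besides Ctsa, the largest log2 ratios in this list were those of Vps29, a subunit of the retromer coat, at 69.1 RPM in the knockout-labelled against 39.2 RPM in the wildtype library (ratio 1.76, 1.54 to 2.02), Cln6 (ratio 1.43, 1.24 to 1.66) and Sumf2 (ratio 0.792, 0.548 to 1.14).

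Macrophages are rich in lysosomal enzymes, and the more abundant transcripts that mark them had higher levels in the knockout-labelled than in the wildtype library. Of 24 macrophage markers 14 were measured, all 14 lay above 0 (12 to 13 under the rescalings), and the median was 0.52 (0.34 to 0.41 rescaled). Cd68, Fcer1g and Mertk reached 5 RPM only in the knockout-labelled library, so the rule for measured genes set their direction. Of the 14 intervals, 9 lay above 1 and 5 held 1. Of all 24 markers, 16 had a ratio above 1 and 8 below, the 8 all under 5 RPM. The summed level of all 24 was 464 RPM in the knockout-labelled library and 273 RPM in the wildtype. C1qa, C1qb and C1qc weighed most in this sum, at 82.1, 121 and 66.2 RPM in the knockout-labelled library. In the wildtype library they were at 37.7, 45.8 and 39.8 RPM. Csf1r and Mrc1 had ratios of 1.20 (1.004 to 1.43) and 1.02 (0.783 to 1.32), and both intervals held 1 under each rescaling. C1qb, C1qa, Tyrobp and Cd68 had ratios of 2.64, 2.18, 1.97 and 1.99, while Cx3cr1 was at 6 reads in the knockout-labelled library and 29 reads in the wildtype (ratio 0.198, 0.0673 to 0.486). Fcgr1 was listed at 0 in the knockout-labelled library and at 9 reads in the wildtype. C1qc, Csf1r, Mrc1, Fcer1g, Mertk, Cx3cr1, Fcgr1, Tcf21, Dcn, Pdgfra, Elane and the osteoclast genes were named after their values were seen. Neutrophil markers summed to 17.8 RPM in the knockout-labelled and 2.62 RPM in the wildtype library, with S100a9 the 1 measured gene of 9 and Elane listed at 0 in both. S100a9, too, reached 5 RPM in the knockout-labelled library alone. Fibroblast markers were lower in sum, at 548 RPM in the knockout-labelled and 668 RPM in the wildtype library, with 9 of 10 below 0. Col3a1, Col1a1, Lum and Islr had ratios of 0.175, 0.228, 0.192 and 0.427. Dcn weighed most in the sum, at 393 RPM in the knockout-labelled and 379 RPM in the wildtype library (ratio 1.04, 0.989 to 1.09). The interval of Pdgfra, at 0.982 (0.848 to 1.14), also held 1. Both intervals lay below 1 under the largest rescaling. Of these markers, Lum and Tcf21 reached 5 RPM in the wildtype library alone. Endothelial markers summed to 928 RPM in the knockout-labelled and 895 RPM in the wildtype library. They were split, with 4 intervals above 1 and 4 below, and their median of 0.03 turned to −0.16 to −0.08 under the rescalings. The part of these cell types in the levels of the hydrolases was not tested.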

How the data were processed

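Left ventricle RNA of 1 mouse labelled Lamp2 knockout and 1 wildtype mouse was analysed from 1 deposited table, with groups from the genotype label. The submitters' processing notes name STAR, mm10 and GRCm38. How reads were counted, whether by strand, and what became of multiply matching reads was, for these data, not given in any source used here. Per the file headers the authors deposited whole-number read counts per gene and normalized values. The deposited RPM equal the count divided by the library total times 1000000, with a largest difference of 5e-05, so each RPM depends on the mitochondrial share. The authors' deposited fold ratio and the authors' deposited p-value, whose method is not stated, were not used.

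RPM ratios were computed from the counts with exact conditional binomial (Clopper-Pearson) 95% intervals, which cover counting error only. Without molecular identifiers several reads can stem from 1 molecule, and the intervals are then too narrow even for counting error. For a gene listed at 0 the upper limit of 3 reads is 0.342 RPM in the knockout-labelled and 0.357 RPM in the wildtype library. Members, substrate classes, 4 pathway lists and 6 marker lists were chosen with earlier results of these data known. Named are all members, Lamp2, in each list up to 4 measured genes with the log2 ratio farthest from 0, and genes marked as outside this rule; some genes that it covers are not reported here. Of 168 list entries 165 were found, 1 of them through a RefSeq synonym. Deposited starts are given plus 1. Lengths are of the longest transcript in the GENCODE M21 basic set, and promoters are from RefSeq (GRCm38.p6). For 10 members a row on the opposite strand overlaps, and reads of such pairs cannot be told apart if strand was not used. The rule and the intervals were tested on simulated counts with counting error only. Spread between animals and repeated reads of 1 molecule were not simulated, so that run cannot speak to them. Alternatives were 2 pseudocounts, 3 minimums, 3 rescalings, 2 folds, the 2-fold rule joined with an exact binomial test of the reads, the mean, and the removal of overlapped members. Scripts ran in Python 3.11.15 with scipy 1.17.1, pandas 2.3.3 and numpy 2.4.6.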

Additional observations from a re-analysis of the deposited data

How the results depend on the processing

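No paired analysis was possible because each genotype had 1 library. The number of members 2-fold higher (1) and lower (0) did not change with the pseudocount, minimum level, scaling, removal of overlapped members or an exact binomial test of the reads beside the fold. At 1.5-fold they were 6 and 2, and at 3-fold 0 were higher. With a minimum of 20 RPM, 13 of the 15 members left lay above 0, beside 20 of 28 in the main setting. The share of all genes above 0 was not computed at 20 RPM, so that count has no background to be read against.

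The members' median log2 ratio stayed positive in all settings run: 0.28 with a pseudocount of 5 RPM, 0.41 without members overlapped on the opposite strand, 0.27 as a mean, and 0.22, 0.22 and 0.14 after division by the median ratio, by the trimmed mean of log ratios, and by totals that leave out mitochondrial rows and the top 10 genes. In the same order of scalings, medians were 0.34, 0.34 and 0.26 for sphingolipid hydrolases, 0.068, 0.065 and −0.0099 for lipid-binding activators, 0.081, 0.079 and 0.0041 for protein-processing enzymes, 0.14, 0.14 and 0.072 for other luminal enzymes, 0.19, 0.18 and 0.11 for cathepsins, and −0.0496, −0.052 and −0.12 for maturation and sorting. On the last scale they were 0.016 for glycosaminoglycan enzymes, 0.19 for glycoprotein enzymes and 0.12 for the TFEB family. At 20 RPM, where fewer genes enter, they were −0.0898 for glycosaminoglycan enzymes, 0.84 for the lipases (Lipa alone), 0.31 for other luminal enzymes, 0.34 for cathepsins and 0.14 for maturation and sorting. For cathepsins the median was also 0.34 at 1 RPM and with no minimum. Other luminal enzymes had 0.20 with 5 RPM added and 0.14 with no minimum. Glycosaminoglycan enzymes had 0.66 without overlapped members. Apart from settings that drop genes or rescale all values alike, the cause was not tested. Of single members, Psap, Smpd1, Gm2a, Npc2 and Ppt1 moved beyond counting error under a rescaling. The rescalings lowered all measured members by similar amounts, 0.09 to 0.20. These genes are named because their many reads make their intervals narrow. Depth limits the members with the fewest reads, whose intervals are widest.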
